A study of Mus musculus with 12 samples.

Results

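The comparison described here sets splenic B cells cultured with a CpG oligodeoxynucleotide (ODN) of class C against B cells cultured with an ODN of class B, across genes. Its members are the known genes with an FPKM above 1 in at least 3 of the 6 CpG-B and CpG-C libraries, 10142 of the 19682 known genes in the deposited table. FPKM is a level per transcript length, the fragments of a gene scaled to kilobases of its transcript and to the mapped fragments of the library. At the edge of the rule, the third-highest value was 1.01 FPKM for Tifab, Mvb12b and 2200002D01Rik, which are inside, and 1.00 FPKM for Tmem159, Syne4 and Cd80, which are outside. The donors were BALB/c mice at post-natal day 42 to 49, and their spleen B cells were kept in RPMI and fetal bovine serum. Treated groups received CpG-A, CpG-B or CpG-C at 1 µM, the control received no ODN, and all groups were collected after 24 h. Each group has 3 libraries, and no genetic change or further agent is named for any group. The labels give neither the ODN sequences nor the way the B cells were purified. They do not say whether the 3 libraries of a group came from separate mice or cultures. The p-values below therefore measure the spread between libraries, which may be technical. Unless stated otherwise, this spread is pooled over the libraries of all groups, CpG-A and control included.

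CpG ODNs are short synthetic DNAs whose unmethylated CpG motifs are bound in endosomes by the Toll-like receptor TLR9. The receptor signals through MyD88 and IRAK kinases to NF-kappaB and MAP kinases, which drive B cell growth, cytokine release and antibody production, and through IRF7 to type I interferon, for which plasmacytoid dendritic cells are best known. Class B ODNs have a phosphorothioate backbone throughout and no need of a palindrome, and class C ODNs combine such a backbone with a palindromic stretch, by which copies can pair. Immediate-early genes, among them the EGR and NR4A families and AP-1 subunits, are transcription factors that respond to receptor signals without new protein synthesis.

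Depth, estimated from the steps between low FPKM values, was 24.2 to 24.9 M (mega) fragments in the CpG-B libraries and 24.6 to 25.7 M fragments in the CpG-C libraries. The third library of both groups stood apart from the first and second in the same way. Within CpG-B the median squared difference between the first and second library was 1.98 times that expected from sampling noise alone. Within CpG-C it was 2.22 times, against 34.3 to 37.5 times for every pair with the third library. In a principal component analysis of the 6 libraries the first component, with 70.1% of the variance, placed the third libraries at 22.8 and 24.1 and the others between -12.4 and -11.2. The second component, with 19.3%, placed all CpG-B libraries above 0 and all CpG-C libraries below 0. Values are therefore given per library, in the order 1, 2 and 3. All 7 B cell marker genes found in the table were above 1 FPKM in each of the 6 libraries. T cell receptor components stood near 0, with Cd3e at 0 to 0.15 FPKM and Cd4 at 0.01 to 0.04 FPKM.

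CpG-C and CpG-B gave closely similar levels for most genes, and a small set differed beyond the spread between libraries. Immediate-early regulators of the EGR family, the chemokine gene Ccl4 and the inhibitory receptor gene Pdcd1 were higher with CpG-C, by 1.81-fold (Egr1) to 3.10-fold (Ccl4) on the scale of FPKM + 1. The stress factor gene Ddit3, Jun and the TLR brake gene Irak3 were lower. Of the 10142 members, 18 were called higher with CpG-C and 10 lower, at an adjusted p under 0.05 by limma on log2(FPKM + 1), which is 0.177% and 0.0986% of them. Without adjustment, 823 members had p under 0.05. The median size of the difference over all members was 0.0894 on the log2(FPKM + 1) scale, and the median half-width of its 95% interval was 0.243. All differences below are on that scale and are CpG-C minus CpG-B, with ± SE from the fit.

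**Figure D1:**
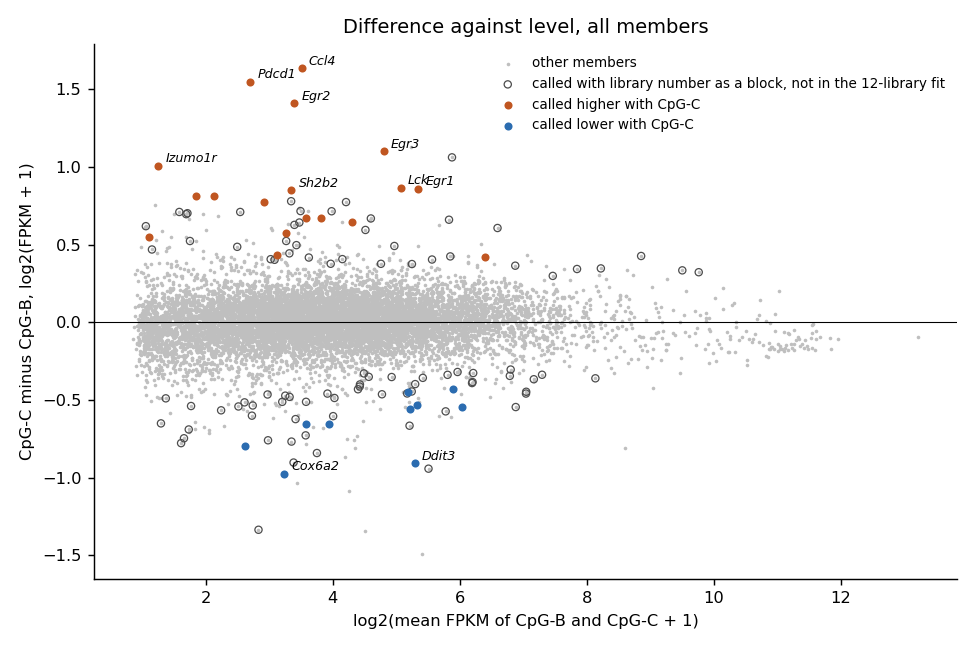
Difference of CpG-C minus CpG-B on the log2(FPKM + 1) scale (vertical axis) against the log2 of the mean level over both groups plus 1 (horizontal axis), 1 point per member. Orange and blue points are the 18 members called higher and the 10 called lower, and open circles are those called by the fit with library number as a block and not by the 12-library fit.

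All 28 called members had their 3 CpG-C values on one side of their 3 CpG-B values. Over all members such a separation was seen in 640 higher (6.31%) and 739 lower (7.29%), a split that was 978 and 468 with TPM scaling and 507 and 912 with upper-quartile scaling. A fit with TPM scaling called 18 higher and 4 lower, and 21 of these were among the 28. With library number taken as a block, in the 6 libraries, 57 members were called higher (0.562%) and 63 lower (0.621%), and these included all 28. The count moved with single libraries, and most with the first CpG-C library, without which 1 member was called higher (Egr3) and 0 lower. Without the second CpG-C library 11 and 4 were called, and without the third 17 and 8. Without the first CpG-B library the counts were 5 and 3, without the second 6 and 1, and without the third 21 and 6. The calls of single members held under 9 of 21 alternatives (Irak3 and Slamf9) to 20 of 21 (Egr3). In a fit of the 6 libraries with no block limma called 0 members, with 518 at an unadjusted p under 0.05.

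**Figure D2:**
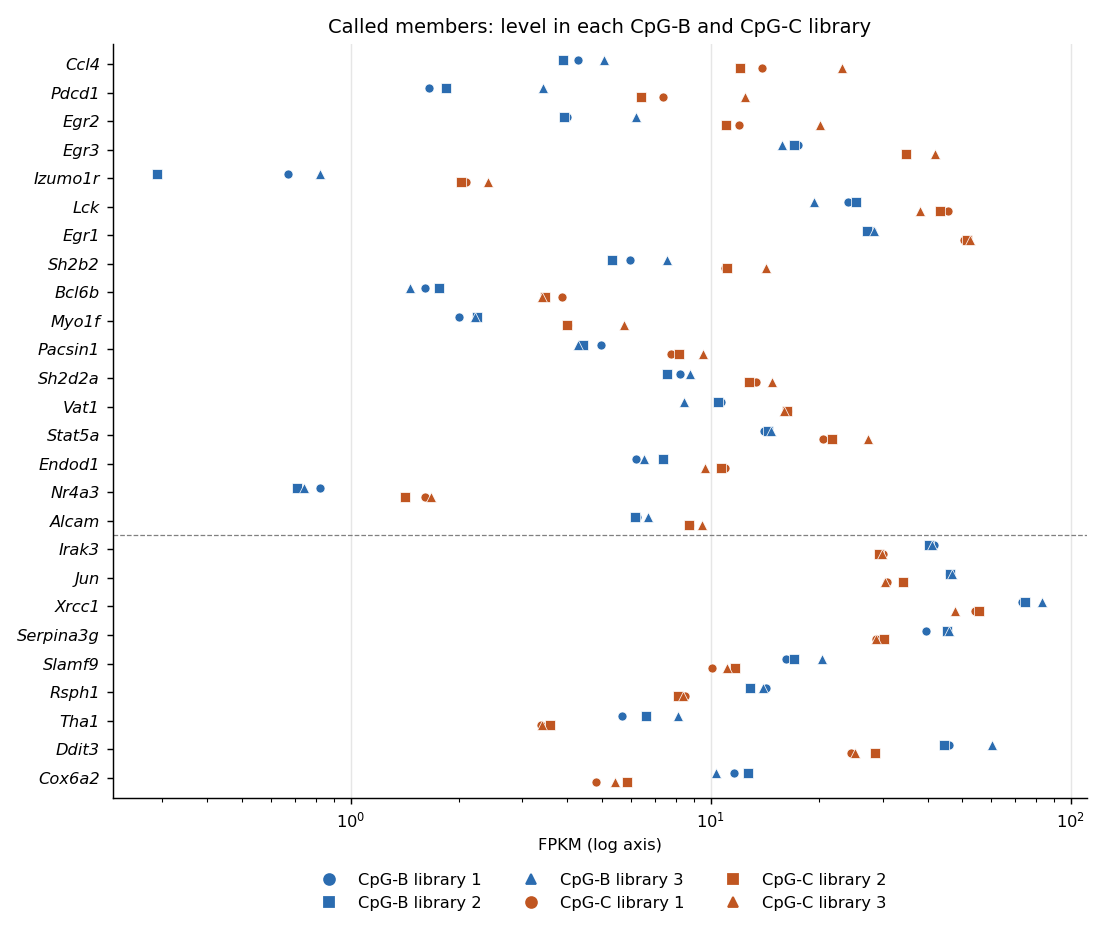
FPKM on a log axis in each CpG-B library (blue) and each CpG-C library (orange) for 26 of the 28 called members, ordered by their difference, with the symbol shape giving the library number. The groups do not overlap in any row; the 17 genes above the dashed line are higher with CpG-C and the 9 below it are lower.

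The group with the most called members was the immediate-early regulators. Of 14 members on that list, 4 were called higher (Egr1, Egr2, Egr3 and Nr4a3) and 1 lower (Jun), and 8 were higher and 1 lower with no overlap between the groups, against 6.31% and 7.29% of all members. The median difference of the list was 0.44, against 0.0060 over all members, and it was 0.37, 0.46 and 0.60 between the libraries numbered 1, 2 and 3.

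Egr2, a zinc finger factor that restrains activation in lymphocytes (gene 13654, chr10:67537869-67542188 in mm10, plus strand), stood at 3.99, 3.91 and 6.19 FPKM with CpG-B and at 11.97, 11.04 and 20.09 FPKM with CpG-C. Every CpG-C library lay above every CpG-B library, and the third library was the highest of each group. The difference was 1.41 ± 0.20 (limma, adjusted p = 0.0162), and adjusted p ran from 5.56e-06 to 0.354 over 21 alternatives, 17 of which called it. Egr3, its close relative (gene 13655, chr14:70077445-70082613), had 17.51, 17.02 and 15.75 FPKM with CpG-B and 34.82, 34.86 and 41.86 FPKM with CpG-C. The third library was the lowest with CpG-B and the highest with CpG-C, and the groups did not overlap. Its difference of 1.10 ± 0.08 had the smallest adjusted p of the members (limma, 0.000319) and was called under 20 of 21 alternatives, the exception being the fit of 6 libraries without a block. Egr1, the family member best known as an early growth response gene, was at 28.03, 27.18 and 28.49 FPKM with CpG-B against 50.42, 51.51 and 52.36 FPKM with CpG-C. The third libraries lay close to the others here, and the difference was 0.86 ± 0.09 (limma, adjusted p = 0.00868).

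Nr4a3, an orphan nuclear receptor gene induced by antigen receptor signals, was low in both groups. It had 0.82, 0.71 and 0.74 FPKM with CpG-B and 1.61, 1.42 and 1.67 FPKM with CpG-C, with no overlap, and a difference of 0.55 ± 0.09 (limma, adjusted p = 0.0342). This call held under 10 of 20 alternatives, with adjusted p from 0.00644 to 0.372, and was lost with each library left out in turn. Its relative Nr4a1 had 16.57, 15.58 and 21.15 FPKM with CpG-B and 24.91, 27.68 and 33.82 FPKM with CpG-C. The groups did not overlap, and in the 12-library fit the gene was not called (limma, adjusted p = 0.106). It was called with library number as a block (adjusted p = 0.0151) and with the third library of both groups left out (0.0184), and adjusted p over its 21 alternatives ran from 0.000154 to 0.675. Nab2, whose product binds EGR proteins and represses their activity, was at 11.48, 10.91 and 15.20 FPKM with CpG-B and at 18.05, 19.13 and 30.35 FPKM with CpG-C. It too was called with the block (adjusted p = 0.0158) and without the third library of both groups (0.00431), but not in the 12-library fit (0.171), with 6.81e-05 to 0.778 over the alternatives.

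Jun, the AP-1 subunit c-Jun (gene 16476, chr4:95049036-95052222, minus strand), went the other way. It stood at 45.88, 46.28 and 46.92 FPKM with CpG-B and at 30.85, 34.10 and 30.57 FPKM with CpG-C. The 3 CpG-B libraries lay within about 1 FPKM of each other and all above the CpG-C libraries, and the difference was -0.53 ± 0.07 (limma, adjusted p = 0.0104). The other AP-1 subunits on the list did not pass: the differences were 0.27 for Junb, -0.09 for Jund, 0.26 for Fos and 0.62 for Fosl2.

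The 250 bases before the start site are shown for Egr2 and Nr4a3, which were higher with CpG-C, and for Jun and Ddit3, which were lower, because these are the regulators among the called members whose windows held a match to the motifs searched. They are RefSeq promoter windows of build GRCm38.p6, printed 5′ to 3′ on the gene's strand, with capitals marking the matches searched for in each window: the CArG box, bound by serum response factor, and TGACG, the core of the cyclic AMP response element, in Egr2; TGACG in Nr4a3; the octamer TGACNTCA, bound by AP-1 and ATF proteins, in Jun; and the AP-1 heptamer TGANTCA in Ddit3. The windows are chr10:67537619-67537868 (plus strand), chr4:48045055-48045304 (plus strand), chr4:95052223-95052472 (minus strand) and chr10:127290543-127290792 (plus strand).
Egr2: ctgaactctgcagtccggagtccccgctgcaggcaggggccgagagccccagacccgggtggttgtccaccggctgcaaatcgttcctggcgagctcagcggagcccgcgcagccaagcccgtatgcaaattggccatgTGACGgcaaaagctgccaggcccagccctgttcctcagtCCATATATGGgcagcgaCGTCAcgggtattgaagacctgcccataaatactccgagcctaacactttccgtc
Nr4a3: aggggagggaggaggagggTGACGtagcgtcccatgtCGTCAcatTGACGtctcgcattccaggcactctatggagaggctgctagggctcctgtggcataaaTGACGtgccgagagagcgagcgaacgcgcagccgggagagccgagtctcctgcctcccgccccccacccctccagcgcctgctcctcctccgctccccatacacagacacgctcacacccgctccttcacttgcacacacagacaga
Jun: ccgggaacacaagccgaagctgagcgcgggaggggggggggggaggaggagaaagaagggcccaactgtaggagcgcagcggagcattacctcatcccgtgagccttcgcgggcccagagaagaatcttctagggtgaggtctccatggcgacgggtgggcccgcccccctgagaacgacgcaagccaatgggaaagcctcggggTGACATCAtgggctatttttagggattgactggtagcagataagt
Ddit3: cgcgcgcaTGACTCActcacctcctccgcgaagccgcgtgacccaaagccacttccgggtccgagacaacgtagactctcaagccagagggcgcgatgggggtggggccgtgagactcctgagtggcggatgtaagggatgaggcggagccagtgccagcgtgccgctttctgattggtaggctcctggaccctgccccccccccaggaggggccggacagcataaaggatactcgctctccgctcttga
Both strands were searched, and TGACG lies within TGACNTCA wherever N is G.

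A window was found for 8237 members, among them 11 of the 18 called higher and 7 of the 10 called lower. The CArG box was present in 1.02% of the 8237 windows and in 1 of the 11, that of Egr2. TGACG was present in 29.4% of the windows, in 4 of the 11 and in 0 of the 7. Nr4a3 held it 4 times, the first at base -231 from the start site. TGACNTCA was present in 6.05% of the windows and in 1 of the 7 (Jun, first base at -45), TGANTCA in 3.64% and in 1 of the 7 (Ddit3, first base at -242), and the EGR site GCGNGGGCG in 9.11% and in 2 of the 11 (Sh2b2 and Vat1). These matches describe the letters of the windows; binding was not measured in these data.

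Ccl4, which encodes the chemokine MIP-1β that attracts T cells and monocytes (gene 20303, chr11:83662584-83664683), had the highest difference of all members. It stood at 4.29, 3.90 and 5.06 FPKM with CpG-B and at 13.88, 12.08 and 23.14 FPKM with CpG-C, with no overlap and with the third library highest in both groups. The difference was 1.63 ± 0.21 (limma, adjusted p = 0.00986), called under 17 of 21 alternatives with adjusted p from 9.21e-06 to 0.292. Ccl3, the neighbouring chemokine of the same family, had 27.22, 28.82 and 13.36 FPKM with CpG-B and 43.60, 43.26 and 63.00 FPKM with CpG-C. Its groups did not overlap either, but the third library lay below the others with CpG-B and above them with CpG-C, and its difference of 1.13 ± 0.25 did not pass (limma, adjusted p = 0.187). Of the 13 cytokine and chemokine genes among the members, Ccl4 was the 1 called, the median difference was -0.20, and 9 were below 0. Il10, the inhibitory cytokine of regulatory B cells, was at 27.63, 28.22 and 36.57 FPKM with CpG-B and at 19.80, 20.81 and 25.44 FPKM with CpG-C. All CpG-C values lay below all CpG-B values, and Il10 was called lower with library number as a block in the 6 libraries (limma, adjusted p = 0.0214). It was not called without the block (0.573) or with the block as a term for the third library in 12 libraries (0.0812), and the alternatives ran from 0.000343 to 1.

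Pdcd1, Lck, Sh2d2a and Izumo1r are best known from T cells and are described together. Pdcd1, which encodes the inhibitory receptor PD-1 (gene 18566, chr1:94038305-94052553, minus strand), had 1.65, 1.84 and 3.43 FPKM with CpG-B and 7.37, 6.40 and 12.45 FPKM with CpG-C. The groups did not overlap and the third library was again the highest of each, with a difference of 1.55 ± 0.22 (limma, adjusted p = 0.0162). Lck, a SRC family kinase that also occurs in some B cells, had 24.11, 25.24 and 19.36 FPKM with CpG-B and 45.50, 43.40 and 38.12 FPKM with CpG-C, a difference of 0.86 ± 0.10 (adjusted p = 0.00868). Here the third library was the lowest of each group, without overlap between the groups.

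Sh2d2a, which encodes an adaptor protein that binds LCK, had 8.24, 7.56 and 8.75 FPKM with CpG-B and 13.34, 12.78 and 14.77 FPKM with CpG-C, a difference of 0.67 ± 0.09 (limma, adjusted p = 0.0113). Izumo1r, which encodes the folate receptor 4 of regulatory T cells and eggs, was at 0.67, 0.29 and 0.82 FPKM with CpG-B and at 2.09, 2.02 and 2.41 FPKM with CpG-C, a difference of 1.01 ± 0.12 (adjusted p = 0.00986). Neither gene's groups overlapped. The 14 T cell markers found in the table summed to 7.18 to 9.05 FPKM with CpG-B and to 6.63 to 9.57 FPKM with CpG-C, with Il7r the highest of them in every library. Cd3d, Cd3e, Cd4, Cd8a and Thy1 were each at or under 0.16 FPKM, Cd3g was at or under 0.51 FPKM, and 1 to 4 of the 14 were at 0 in each library. Lat stood at 0.79 to 1.99 FPKM, Zap70 at 1.26 to 1.99 FPKM, and Cd28 reached 0.61 FPKM in the third CpG-C library. In bulk RNA a change in the number of cells of a type and a change in the RNA per cell cannot be told apart.

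The other members called higher include signalling proteins and factors. Stat5a, the STAT factor that acts downstream of interleukin-2 family cytokines, had 14.08, 14.45 and 14.68 FPKM with CpG-B and 20.53, 21.72 and 27.40 FPKM with CpG-C. The CpG-B libraries were close together, the third CpG-C library was the highest, and the difference was 0.64 ± 0.10 (limma, adjusted p = 0.0337). Bcl6b, a relative of the repressor BCL6, was at 1.61, 1.76 and 1.46 FPKM with CpG-B and at 3.87, 3.47 and 3.39 FPKM with CpG-C, a difference of 0.81. Sh2b2, which encodes an adaptor of receptor kinases, had 5.98, 5.33 and 7.55 FPKM with CpG-B and 10.95, 11.07 and 14.28 FPKM with CpG-C. Both genes were about 2 times as high with CpG-C in mean FPKM. Further members called higher were Myo1f, an unconventional myosin (0.81), Pacsin1, a membrane-bending protein (0.77), Vat1 (0.67), Endod1 (0.57) and the adhesion molecule gene Alcam (0.43). The calls of Stat5a, Sh2b2 and Vat1 held under 13, 12 and 12 of 21 alternatives, and that of Vat1 was lost with TPM scaling. Of the 18, 5 had a difference past 1, that is 2-fold on this scale.

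Among the 10 members called lower, Ddit3 encodes CHOP, a transcription factor of the unfolded protein and amino acid responses that favours cell death (gene 13198, chr10:127290793-127296288). It stood at 45.81, 44.39 and 60.37 FPKM with CpG-B and at 24.57, 28.61 and 25.10 FPKM with CpG-C. The third CpG-B library was the highest, and even the lowest CpG-B value was above every CpG-C value. The difference was -0.91 ± 0.11 (limma, adjusted p = 0.00868), called under 19 of 21 alternatives. Cox6a2, a muscle-type subunit of cytochrome c oxidase (gene 12862, chr7:128205435-128206366, minus strand), had 11.58, 12.66 and 10.33 FPKM with CpG-B and 4.81, 5.86 and 5.44 FPKM with CpG-C. Its groups lay far apart relative to their spread, with a difference of -0.97 ± 0.13 (limma, adjusted p = 0.00986). The call held under 14 of 21 alternatives, with adjusted p from 9.11e-05 to 0.72. It was lost with TPM scaling, with a pseudocount of 0.1 and with no filter, among others.

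Irak3, which encodes IRAK-M, a kinase relative that dampens TLR signalling, was at 41.59, 40.48 and 41.05 FPKM with CpG-B and at 30.13, 29.27 and 29.94 FPKM with CpG-C. The 3 libraries of each group agreed within about 1 FPKM, the third ones included, and the difference was -0.45 ± 0.08 (limma, adjusted p = 0.0441). The call held under 9 of 21 alternatives, with adjusted p from 0.000165 to 0.292, and was lost with each library left out in turn and with TPM scaling. The 15 monocyte and macrophage markers summed to 7.71 to 9.92 FPKM with CpG-B and to 8.03 to 11.97 FPKM with CpG-C, with Cd68 the highest, and the sum was higher with CpG-C at each library number.

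Serpina3g, a protease inhibitor gene of activated lymphocytes, was at 39.56, 45.19 and 46.03 FPKM with CpG-B and at 28.82, 30.24 and 28.79 FPKM with CpG-C, with no overlap and a difference of -0.56 ± 0.08 (limma, adjusted p = 0.0162). It has close copies in its gene cluster, and reads shared between them could have been split by the counting. Xrcc1, the scaffold of DNA single-strand break repair, had 73.30, 74.53 and 83.42 FPKM with CpG-B and 54.04, 55.69 and 47.61 FPKM with CpG-C, a difference of -0.55 ± 0.08. The third library was the highest with CpG-B and the lowest with CpG-C, and the groups did not overlap. Further members called lower were Tha1, a threonine aldolase (-0.80), Rsph1, a radial spoke protein of cilia (-0.65), and Slamf9, a receptor of the SLAM family (-0.65). Their calls held under 11, 10 and 9 of 21 alternatives, and none of the 3 was called with TPM scaling or with a pseudocount of 0.1. Vpreb3, a chaperone of the immunoglobulin chains, and Bfsp2 had the next smallest p-values among members lower with CpG-C at 5 FPKM or more, and did not pass, at -0.55 and -0.49 (limma, adjusted p = 0.0921 and 0.0979). With library number as a block both were called lower (adjusted p = 0.0278 and 0.0426, within ranges of 0.000141 to 0.666 and 0.00104 to 0.354 over 21 alternatives).

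Past 2-fold in size, 7 further members were not called; they are named here because of their values. Ly6c2 and Ly6c1, near-identical genes between which reads may be split, had -1.49 and -1.34. Ly6c2 stood at 43.66, 42.63 and 85.33 FPKM with CpG-B and at 11.15, 10.09 and 54.86 FPKM with CpG-C. The third library was about 2 times the others with CpG-B and more than 4 times with CpG-C, so that the groups overlapped (limma, adjusted p = 0.63). Nupr1, Trib3 and Cth, stress response genes, had -1.34, -1.08 and -1.03, and Spp1, the secreted protein osteopontin, and Ccl3 had 1.06 and 1.13.

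The levels of the called members in the CpG-A and control cultures are given beside these as a description, since all comparisons use the same CpG-B and CpG-C libraries. Means ± SD (n = 3) of Ccl4 were 2.62 ± 0.69 FPKM in the control, 44.7 ± 5.76 FPKM with CpG-A, 4.42 ± 0.59 FPKM with CpG-B and 16.4 ± 5.94 FPKM with CpG-C. Egr2 had 20.5 ± 0.79, 27.6 ± 2.61, 4.70 ± 1.29 and 14.4 ± 4.98 FPKM in the same order. Its level was thus lowest with CpG-B, and the control lay above CpG-C as well. Lck had 79.3 ± 4.87 FPKM in the control, 107.5 ± 1.55 FPKM with CpG-A, 22.9 ± 3.12 FPKM with CpG-B and 42.3 ± 3.80 FPKM with CpG-C. In 10 of the 18 called higher the control mean lay above that of CpG-C. Egr1, Egr3 and Nr4a3 were among them, with control means of 54.62, 62.45 and 2.43 FPKM against 51.43, 37.18 and 1.57 FPKM with CpG-C. Of the 18 called higher, 16 had their CpG-C mean between those of CpG-B and CpG-A. The other two, Stat5a and Vat1, were highest with CpG-C: Stat5a stood at 23.2 ± 3.67 FPKM, against 18.7 ± 0.66 FPKM with CpG-A and 16.8 ± 1.60 FPKM in the control, and Vat1 at 16.2 ± 0.18 FPKM against 15.0 ± 1.08 and 14.1 ± 1.73 FPKM. All 10 members called lower had their highest mean with CpG-B. Rsph1 was at 0.12 ± 0.11 FPKM in the control and 0.26 ± 0.08 FPKM with CpG-A, against 13.7 ± 0.76 FPKM with CpG-B and 8.34 ± 0.20 FPKM with CpG-C. Irak3 was at 10.3 ± 0.66, 7.54 ± 0.70, 41.0 ± 0.56 and 29.8 ± 0.45 FPKM in the control, CpG-A, CpG-B and CpG-C groups. Ddit3 with CpG-C, at 24.57 to 28.61 FPKM, lay around the control mean of 26.9 ± 0.76 FPKM, with CpG-B at 50.2 ± 8.85 FPKM and CpG-A at 17.5 ± 0.40 FPKM.

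**Figure D3:**
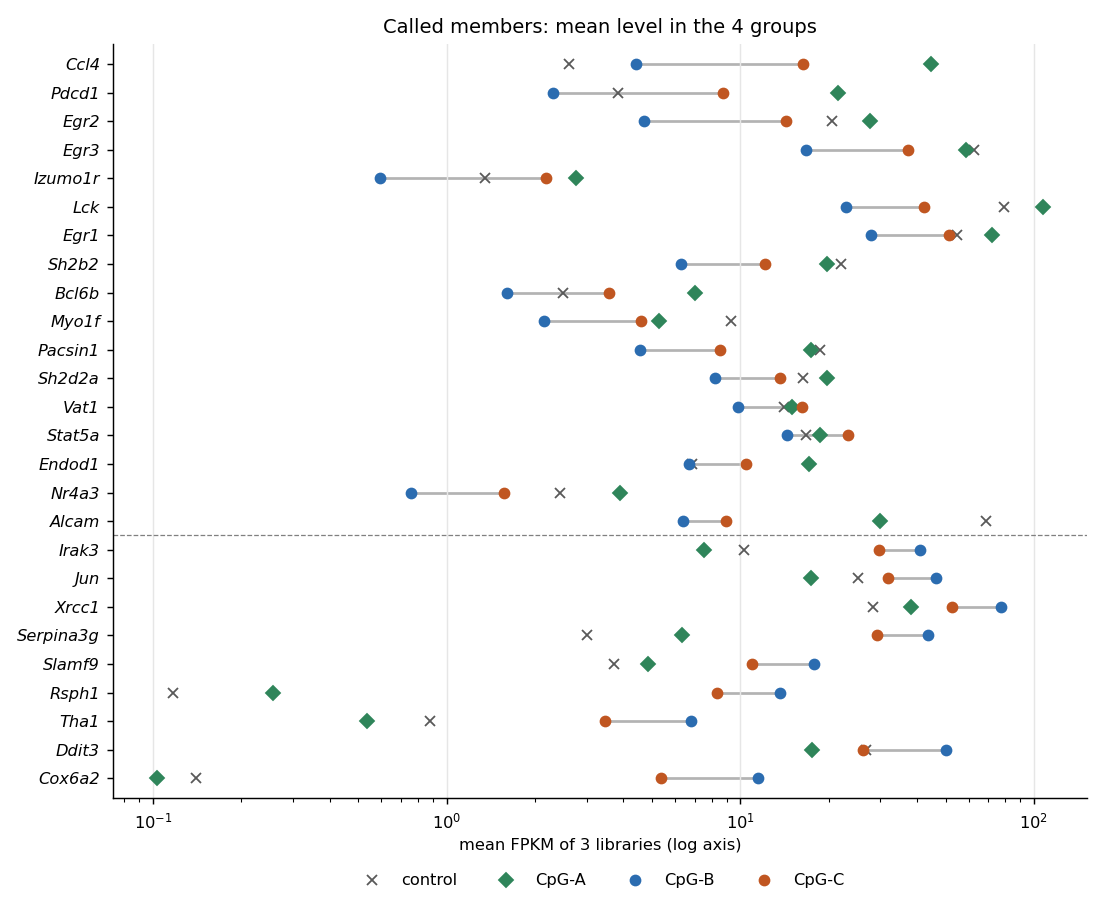
Mean FPKM of 3 libraries on a log axis for 26 of the 28 called members in the control (crosses), CpG-A (diamonds), CpG-B (blue) and CpG-C (orange) groups, with a grey line joining CpG-B and CpG-C. For Lck the means are 79.3, 107.5, 22.9 and 42.3 FPKM, and for Irak3 10.3, 7.54, 41.0 and 29.8 FPKM.

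With library number as a block, 92 members were called beyond the 28. Apoe, apolipoprotein E, had 50.73, 53.79 and 24.84 FPKM with CpG-B and 81.38, 86.03 and 39.27 FPKM with CpG-C. The third library was far below the others of its group and the groups overlapped, while CpG-C was the higher library of each number (blocked difference 0.66, limma, adjusted p = 0.00815 with the block, 0.856 without it, and 2.92e-05 to 1 over the alternatives). Ctla4, an inhibitory receptor, had 5.02, 4.70 and 24.62 FPKM with CpG-B and 9.96, 8.56 and 36.05 FPKM with CpG-C, and Socs3, a feedback inhibitor of STAT3, had 32.20, 31.04 and 65.22 FPKM against 22.77, 23.46 and 46.98 FPKM. In both genes the third library was the highest of its group by far. Ctla4 was called higher and Socs3 lower, each at an adjusted p of 0.0219 with the block and 1 without it (0.00024 to 1 and 0.000297 to 1 over the alternatives). Further members called higher under the block were Fcmr, the IgM receptor (0.61), Dusp4, a MAP kinase phosphatase (0.59), the GTPase regulator gene Tagap (0.78), Bhlhe40 (0.37) and Ldha, lactate dehydrogenase A (0.33). Called lower under it were Il2ra, the interleukin-2 receptor alpha chain (-0.60), Cebpb and Cebpd (-0.76 and -0.67), Pim1, a survival kinase (-0.46), Cdkn1a, the cell cycle inhibitor p21 (-0.48), Xbp1, a factor of plasma cell secretion (-0.35), and Plac8 (-0.36). A fit without a block left out the third library of both groups and kept CpG-A and control. Of these genes, it also called Apoe, Ctla4, Socs3, Fcmr, Dusp4, Tagap, Bhlhe40, Il2ra and Pim1, and not the others. With libraries 1 and 2 of CpG-B and CpG-C fitted alone, Cebpb, Cebpd, Cdkn1a, Xbp1 and Plac8 were called lower, against 6.79% of all members. Xbp1 was not called with the block as a term for the third library in 12 libraries (limma, adjusted p = 0.0959, and 0.00035 to 1 over its alternatives).

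The type I interferon response differed by library number. Of the 30 members on that list 0 were called, with or without the block, while 29 were below 0 and the median difference was -0.42, against 0.0060 over all members. Between the libraries numbered 1 the median was -0.67 and between those numbered 2 it was -0.57, with 0 of 30 genes above 0 in either. Between the libraries numbered 3 it was 0.03, with 18 of 30 above 0. Isg15, a ubiquitin-like protein, was at 31.52, 31.83 and 52.48 FPKM with CpG-B and at 15.93, 18.37 and 55.06 FPKM with CpG-C. The third library was the highest of each group and close between the groups, while the first and second CpG-C libraries lay far below those of CpG-B.

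Rtp4, a chaperone-like protein induced by interferon, had 24.37, 23.19 and 25.26 FPKM with CpG-B and 9.49, 11.26 and 22.32 FPKM with CpG-C. Ifi44 had 13.02, 14.91 and 30.79 FPKM with CpG-B and 4.51, 4.77 and 35.61 FPKM with CpG-C. Irf7, the factor that amplifies interferon production, had 49.61, 51.55 and 40.38 FPKM with CpG-B and 26.62, 31.61 and 40.83 FPKM with CpG-C. In all these genes the third CpG-C library was the highest of its group, and in Ifi44 and Irf7 it exceeded the third CpG-B library. Of the 30, 6 had no overlap, all lower, against 7.29% of all members. These 6 were Rtp4, Ifit2, Ifit3, Irf9, Oasl1 and Xaf1.

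When libraries 1 and 2 of each group were fitted alone, a choice made after the data were seen, 29 of the 30 interferon genes were called lower and 0 higher, the exception being Ifih1. With the same libraries left out but CpG-A and control kept in the fit for the spread, 0 of the 30 were called (Rtp4 at an adjusted p of 0.215, within 2.66e-05 to 1 over its alternatives). In the fit of libraries 1 and 2 alone 625 members (6.16%) were called higher and 689 (6.79%) lower. Its p-values measure the spread between first and second libraries, whose squared differences are about 2 times those of sampling noise. The third library lay above the mean of the first and second by a median of 0.51 over this list with CpG-C, and by -0.08 with CpG-B. The 11 interferon-inducible GTPase genes had medians of -0.20, -0.26 and 0.01 by library number, and 0 were called. The 12 dendritic cell markers summed to 106.6 to 130.8 FPKM with CpG-B and to 76.2, 79.1 and 119.0 FPKM with CpG-C, and Bst2, itself on the interferon list, gave the largest share in 5 of these 6 libraries. Bst2 stood at 63.52, 62.97 and 78.19 FPKM with CpG-B and at 33.62, 35.61 and 71.51 FPKM with CpG-C. Flt3 was at 7.25, 6.17 and 18.39 FPKM against 4.38, 4.79 and 10.21 FPKM. Over the 6 libraries Tcf4 was at 28.83 to 34.61 FPKM and Ccr9 at 2.96 to 4.69 FPKM. Siglech, Xcr1, Clec9a and Cd209a were each at or under 0.06 FPKM. Whether the dendritic cell markers have a part in the interferon values was not tested.

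**Figure D4:**
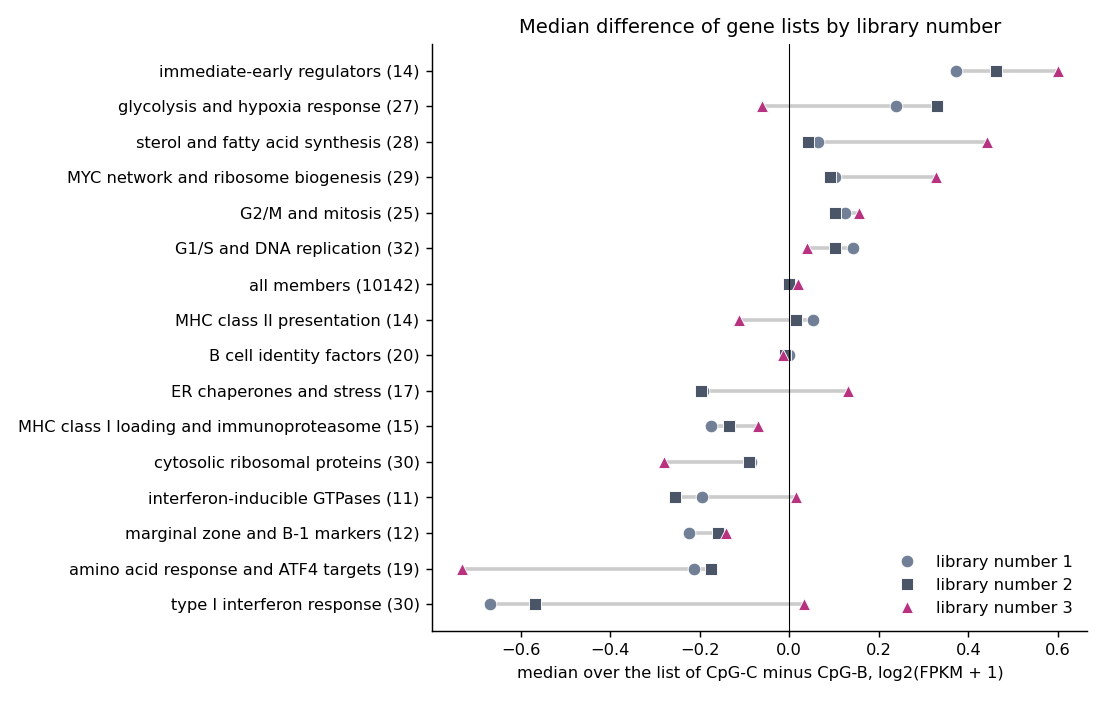
Median over each gene list of the difference CpG-C minus CpG-B on the log2(FPKM + 1) scale, taken between libraries numbered 1 (circles), 2 (squares) and 3 (triangles), with the number of members in parentheses. Immediate-early regulators lie at 0.37, 0.46 and 0.60, and the type I interferon response at -0.67, -0.57 and 0.03.

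Targets of the amino acid response and its factor ATF4 were below 0 in 19 of 19 members. This response, set off by amino acid shortage and other stresses, raises amino acid synthesis and import. The median difference was -0.36, with -0.21, -0.17 and -0.73 between libraries 1, 2 and 3, and 6 members had no overlap, all lower, against 7.29% of all members. In the 12-library fit 0 of 19 were called (limma), and 4 were called lower with the block (Cebpb, Nupr1, Atf5 and Slc7a3), against 0.621% of all members. Nupr1, a stress-induced chromatin protein, had 4.95, 6.01 and 17.22 FPKM with CpG-B and 1.59, 2.14 and 4.82 FPKM with CpG-C. The third library was the highest of each group, and CpG-C was the lower one at each number (blocked adjusted p = 0.0121, 0.379 without the block, and 0.000244 to 0.939 over 20 alternatives).

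Trib3, a pseudokinase that ATF4 and CHOP induce, was at 16.55, 17.83 and 43.02 FPKM with CpG-B and at 8.85, 11.18 and 11.70 FPKM with CpG-C. Atf5 was at 42.09, 39.89 and 98.92 FPKM with CpG-B and at 23.46, 25.00 and 38.05 FPKM with CpG-C. In both the third CpG-B library was more than 2 times the others, a step that was smaller with CpG-C, and the groups did not overlap. Asns, asparagine synthetase, showed the same step at 38.15, 40.29 and 110.55 FPKM against 28.53, 30.61 and 53.77 FPKM, with overlap. Phgdh, Psat1 and Shmt2, enzymes of serine and glycine synthesis, had differences of -0.01, -0.19 and -0.21. Over the list the third library lay above the other libraries by a median of 1.07 with CpG-B and 0.63 with CpG-C. Ddit3, described above, belongs to the same response. Of the 17 members of the ER chaperone and stress list, on which it stood, it was the 1 called. The list's median was -0.09, and by library number -0.19, -0.20 and 0.13, with 1, 0 and 13 of the 17 above 0. Ddit3 itself was below 0 at each number (-0.87, -0.62 and -1.23). In the fit of libraries 1 and 2 alone 11 of the 17 were called lower, against 6.79% of all members.

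Metabolic lists held 0 called members. Of 27 glycolysis and hypoxia genes, 25 were above 0 at a median of 0.17, with 0.24, 0.33 and -0.06 by library number. Egln3, an oxygen-sensing hydroxylase, had 6.16, 6.04 and 2.66 FPKM with CpG-B and 13.03, 12.77 and 2.38 FPKM with CpG-C, so that CpG-C was higher in libraries 1 and 2 and not in library 3. With libraries 1 and 2 alone 25 of the 27 were called higher, against 6.16% of all members. With CpG-A and control kept in that fit 6 of the 27 were called higher, against 60 of the 10142 members. Of 28 sterol and fatty acid genes, 25 were above 0 at a median of 0.16, with 0.06, 0.04 and 0.44 by library number, the reverse pattern. Sc5d, a desaturase of cholesterol synthesis, had 28.22, 31.77 and 14.55 FPKM with CpG-B and 36.70, 36.32 and 23.93 FPKM with CpG-C, and Scd2 had 280.07, 286.10 and 163.33 FPKM against 302.31, 304.12 and 183.56 FPKM. The third library was the lowest of each group in both genes.

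Growth and cell cycle genes differed little and had 0 called members. MYC network and ribosome biogenesis genes were above 0 in 26 of 29 cases at a median of 0.14, which was 0.10, 0.09 and 0.33 by library number. Myc itself was at 31.48, 30.25 and 57.82 FPKM with CpG-B and at 34.38, 33.55 and 68.22 FPKM with CpG-C, with the third library about 2 times the others in each group and overlap between the groups. G2/M genes were above 0 in 22 of 25 cases (median 0.14) and G1/S genes in 24 of 32 (median 0.10). In the fit of libraries 1 and 2 alone 10 of the 25 G2/M genes and 10 of the 32 G1/S genes were called higher. So were 5 of the 29 MYC network and ribosome biogenesis genes, against 6.16% of all members, while 1 G1/S gene was called lower. Mki67, a proliferation marker, had 54.22, 54.21 and 46.59 FPKM with CpG-B and 61.85, 61.69 and 62.30 FPKM with CpG-C, with no overlap and a difference of 0.26 ± 0.09 that did not pass (limma, adjusted p = 0.573). Cytosolic ribosomal protein genes were below 0 in 28 of 30 cases at a median of -0.15, with 19 of 30 lower without overlap, against 7.29% of all members. MHC class I loading genes were below 0 in 14 of 15 cases at a median of -0.13. With libraries 1 and 2 alone 9 of these 15 and 5 of the 30 ribosomal protein genes were called lower, against 6.79% of all members. In that fit 1 ribosomal protein gene was called higher. These lists kept the sign of their median under the other scalings.

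Genes of B cell differentiation and function were mostly close between the ODNs. The differences were -0.16 for Prdm1, the plasma cell master factor, -0.04 for Irf4, and 0.44 for Tbx21, the factor T-bet. All had adjusted p = 1 and overlapping groups. By library, Tbx21 had 1.94, 2.03 and 4.47 FPKM with CpG-B and 2.88, 3.39 and 6.09 FPKM with CpG-C, the higher at each number. With library number as a block it fell short of the threshold (limma, adjusted p = 0.0545). It was called higher under 1 of 20 alternatives, the fit of libraries 1 and 2 alone. Tlr9, the receptor itself, was at 37.19, 36.71 and 16.78 FPKM with CpG-B and at 40.69, 41.07 and 26.04 FPKM with CpG-C. The third library was the lowest of each group, and the 95% interval of the difference, from -0.29 to 0.88, includes 0. Tlr7 had -0.20, Cd69 -0.23 and Cd86 -0.29, all short of the threshold, and Il6 and Tnf, at 3.45 to 8.55 FPKM in the 6 libraries, had -0.20 and 0.24. On the lists of B cell receptor signalling and of B cell identity factors, each with 20 members, 0 were called, and the medians were -0.04 and -0.01, with the sign turning under TPM scaling (0.01 and 0.03).

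The third libraries deviated from the first and second of their group in the same direction for 81.7% of members, and 39 members did so by more than 2-fold in both groups, 13 above and 26 below. The genes furthest above were Slpi, a secreted protease inhibitor, and Jchain, the chain that joins IgM and IgA. Slpi was at 5.13, 4.84 and 28.46 FPKM with CpG-B and at 2.78, 3.32 and 21.28 FPKM with CpG-C, and Jchain at 25.54, 24.79 and 117.87 FPKM against 32.25, 28.97 and 113.29 FPKM. In each the third library was more than 3 times the others of its group in FPKM. On the log2(FPKM + 1) scale this step was 2.30 with CpG-B and 2.46 with CpG-C for Slpi, and 2.18 and 1.86 for Jchain. The highest difference between the ODNs on that scale was 1.63 (Ccl4). Ctla4, Ifi44l, Tg and Nfil3 followed. Furthest below were Tsc22d1, at 26.63, 26.66 and 8.82 FPKM with CpG-B and at 26.22, 26.75 and 7.04 FPKM with CpG-C, and Eno2, Wfdc21, Smpdl3a, Cyp4f18 and Dnase1l3. Of the 10142 members, the third library was above the others in both groups in 3834 and below them in both in 4454. By list, it was above the others of both groups in 19 of 19 amino acid response genes, 25 of 25 oxidative phosphorylation genes and 29 of 32 G1/S genes. It was below them in 27 of 28 sterol genes. The labels name no batch for these libraries.

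**Figure D5:**
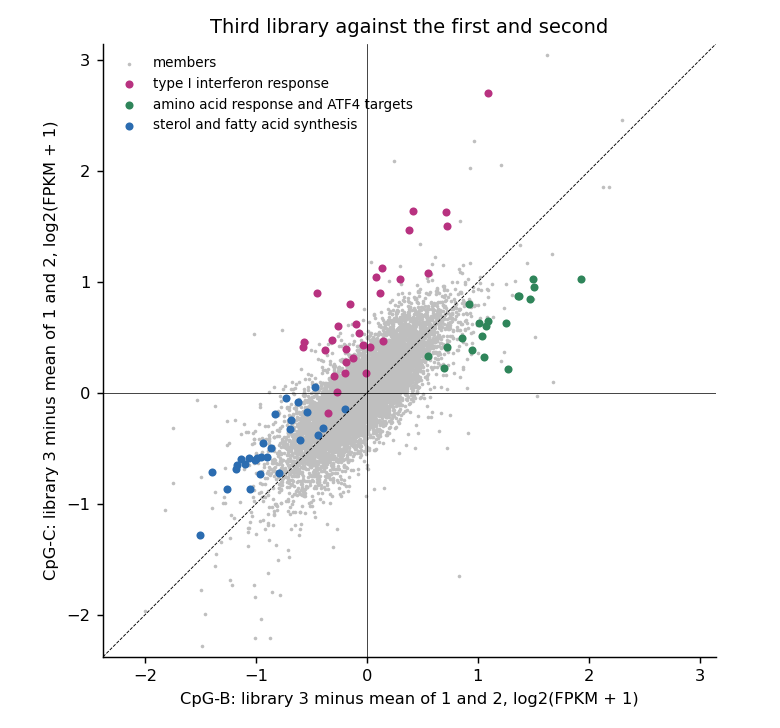
Level of the third library minus the mean of the first and second, on the log2(FPKM + 1) scale, in CpG-B (horizontal axis) and CpG-C (vertical axis), 1 point per member, with the dashed line marking equal deviations. Type I interferon genes lie mostly above that line (medians -0.08 and 0.51), amino acid response genes to its right (1.07 and 0.63), and sterol genes below 0 in both (-0.92 and -0.58).

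The authors' deposited table gives its own test of this comparison, and 5108 members (50.4%) have a q-value under 0.05 there, 2914 higher and 2194 lower with CpG-C. Of these, 31 are past 2-fold in the authors' deposited table. All 28 members called here have the same sign and a q-value under 0.05 in the authors' deposited table, which gives a log2 ratio of 1.90 for Ccl4, 1.62 for Egr2, -0.95 for Ddit3 and -1.10 for Cox6a2. No source used here names the tool behind that table, and its q-value is below its p-value for 678 members.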

How the data were processed

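Per the file headers, the authors deposited gene-level FPKM, with 2 decimals, for 12 libraries. Build mm10, RSEM 1.2.8, Bowtie2 2.2.5, GATK, StringTie and HISAT appear in the submitters' processing notes without a stated role. The deposited table also gives the authors' log2 ratios, p-values and q-values. Of 28021 entries 2 lacked a gene name and were dropped, and 26 symbols turned into dates by a spreadsheet were restored through a RefSeq table (GRCm38.p6). FPKM are not counts, so limma's trend method (limma 3.58.1, R 4.3.3) was fitted to log2(FPKM + 1) for the 15853 features above 1 FPKM in at least 3 of the 12 libraries, with 4 group means, and p-values were adjusted by Benjamini-Hochberg over all of them. A member is called at an adjusted p under 0.05. The pseudocount makes differences of low genes smaller than their FPKM ratio. Tables and figures were made with Python 3.11.15, pandas 2.3.3 and matplotlib 3.10.9.

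Depth was estimated from FPKM steps of low genes (73.0% to 78.7% of the low values of these libraries were whole fragments to a tolerance of 0.2, where chance gives 40%), so no counts were recovered for testing. The members and gene lists were chosen with earlier results of these data known. Genes are named by a rule that takes the 12 highest and 12 lowest differences among called members whose higher group averages 5 FPKM or more (with the smallest p filling up a direction that has fewer), the member of each list with the smallest p, 24 fixed genes and 12 genes of the third library; others that the text names were chosen after their values were seen. Library numbers come from the titles. Deviations from the group mean correlated at r = 0.719, 0.64 and 0.796 across genes between same-numbered CpG-B and CpG-C libraries, so numbers were treated as pairs; libraries 1 and 2 of opposite groups correlated as well (0.668 and 0.692), so the pairing rests mainly on the third libraries. The fit was tested on simulated data with noise independent between libraries, so that test does not cover the shared deviation of the third libraries. Alternatives changed the pseudocount, the filter, the features and libraries fitted, the scaling, the variance model and the block. Individual values of 1 member called higher, 1 called lower and 1 fixed gene are not reported here; the counts include them.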

Additional observations from a re-analysis of the deposited data

How the results depend on the processing

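The 18 members called higher and 10 called lower stayed within 1.5 times of these counts with median-of-ratios (19 and 10) or upper-quartile scaling, a filter at 5 FPKM, a fit of members only, a pseudocount of 5, and with or without a variance trend. The count called lower was 5 with a pseudocount of 0.1 and 4 with no filter or with TPM scaling. With the replicate block in 6 libraries 57 and 63 were called, with a term for the third library in 12 libraries 147 and 128, without the third library of both groups 60 and 24, and in 4 libraries alone 625 and 689, an alternative chosen after seeing the data. All 28 were among the calls of both blocked fits, and the block ended no call. The fit of 6 libraries without a block called 0 and 0. Leaving out 1 library at a time gave 1 to 21 higher and 0 to 8 lower, and the cause was not tested. Members without overlap numbered 978 higher and 468 lower with TPM scaling.

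Leaving out 1 library at a time reversed the sign of 6 reported differences among the called, list-leading and fixed genes, none of them called (the genes named for the third library were not counted): the differences ran from -0.22 to 0.10 for Prf1, -0.22 to 0.16 for Irf4, -0.068 to 0.51 for Tlr9, -0.16 to 0.46 for Myc, -0.087 to 0.45 for Slc16a3 and -0.14 to 0.36 for Scd2. The median half-width of the 95% interval of a difference was 0.243, and 0.159 with the block. A difference whose own interval includes 0 was not told apart from 0, which does not show that the levels were equal. A call asks for more, since its p-value is adjusted over all features tested.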
